A study of Mus musculus with 78 samples.

Results

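The genes described here are 10 messages of the mouse oocyte, among them those of its coat, its secreted factors and its meiotic arrest: Zp1, Zp2, Zp3, Gdf9, Bmp15, Oosp1, Oas1d, Mos, Kit and Figla. They were chosen as the rows with these Entrez identifiers in the 4-cell and the 8-cell gene table, and all 10 were listed in both tables, among 15218 genes at 4 cells and 15342 at 8 cells. The question was at what level each message stood at either stage, and in what share of the blastomeres it was seen. No oocyte or other earlier stage was analysed here, so the part lost since the oocyte cannot be given. The values also do not separate inherited message from any that the embryo might make. The values are FPKM, fragments scaled by the length of the gene and by the fragment total of the library, from Smart-seq2 libraries of single blastomeres, with 24 columns at 4 cells and 26 at 8 cells.

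All embryos came from a cross of mice that carry CAG-Brainbow2.1 at the Rosa26 locus with mice of the Tg(CAG-cre/Esr1*)5Amc/J line, so that blastomeres of both stages carry the colour cassette and, under the ubiquitous CAG promoter, a Cre recombinase that tamoxifen switches on. They were collected as 2-cell embryos 46 h after the last hormone injection of superovulated females, received 4-hydroxytamoxifen for 2 h and were cultured, and no group without the transgenes or tamoxifen was analysed here. The labels describe 36 blastomeres of 9 embryos at 4 cells and 31 of 4 embryos at 8 cells, and also 5-cell and 6-cell embryos that are not analysed here. The methods state that the zona was taken off before the blastomeres were separated. Only blastomeres with a resolved lineage entered the study's own comparisons, which leaves out some of the 4-cell embryos. The tables have as many columns as there are such blastomeres. At 8 cells 5 columns are named NA. The supplement writes NA for an undetermined lineage, and whether the column name has that meaning is not stated. Values that rest on these columns carry this doubt. No column name matches one embryo or sample in the labels, so each stage was treated as 1 sample. The blastomeres of a stage are not replicates of it, no test between stages was made, and every difference between stages below is a description of these libraries.

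The zona pellucida is the glycoprotein coat of the egg, built from ZP1, ZP2 and ZP3, and its genes are transcribed in the growing oocyte and not in the embryo. GDF9 and BMP15 are growth factors of the TGF-beta family that the oocyte sends to the surrounding granulosa cells. The embryo inherits these messages, clears most maternal RNA around the time its own genome is switched on at the 2-cell stage, and how long single messages last in it differs. FIGLA, an oocyte transcription factor that binds E-box motifs with its partner, is required for the expression of the zona genes.

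The 250 bases before the start of Zp3, Bmp15 and Oosp1 are shown. The reason is that FIGLA, the factor linked to E-boxes of the zona genes, is itself among the 10 messages. At 8 cells the means of Bmp15 and Oosp1 were at least 2-fold lower, and that of Zp3 was not. A link between these letters and the levels was not tested. The sequences are from the RefSeq promoter table of GRCm38.p6, read 5′ to 3′ on the gene's strand, with every CANNTG, the E-box, in capitals. Zp3 lies at chr5:135980105-135988624 on the plus strand with 8 exons, and the stretch shown is chr5:135979855-135980104. Bmp15 lies at chrX:6314054-6320724 on the minus strand with 2 exons, and the stretch shown is chrX:6320725-6320974. Oosp1 lies at chr19:11667460-11691051 on the minus strand with 5 exons, and the stretch shown is chr19:11691052-11691301.
Zp3: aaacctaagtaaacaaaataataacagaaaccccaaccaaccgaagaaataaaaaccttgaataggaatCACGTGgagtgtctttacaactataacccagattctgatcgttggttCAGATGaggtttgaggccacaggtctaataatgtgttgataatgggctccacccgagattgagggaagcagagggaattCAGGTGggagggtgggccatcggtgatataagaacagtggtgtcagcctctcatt
Bmp15: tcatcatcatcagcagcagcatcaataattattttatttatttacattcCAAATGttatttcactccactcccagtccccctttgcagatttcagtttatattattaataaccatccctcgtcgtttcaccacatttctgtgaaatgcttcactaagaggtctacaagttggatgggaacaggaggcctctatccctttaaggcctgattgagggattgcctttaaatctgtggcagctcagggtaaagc
Oosp1: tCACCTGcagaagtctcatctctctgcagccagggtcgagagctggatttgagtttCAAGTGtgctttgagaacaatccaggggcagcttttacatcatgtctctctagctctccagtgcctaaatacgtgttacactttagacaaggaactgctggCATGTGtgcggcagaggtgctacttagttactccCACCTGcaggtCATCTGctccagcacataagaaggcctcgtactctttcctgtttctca
Zp3 held 3 E-boxes in this stretch, the first of them CACGTG, Bmp15 held 1 and Oosp1 held 5. Only 5 of the 10 members had an entry, and there was none for Zp1, Zp2, Gdf9, Mos and Oas1d. Zp3 is thus the only zona gene that could be examined. The entry of Kit held no E-box, and that of Figla, which lies inside the gene span given below, is left out here. The motif reads the same on both strands, and CACGTG is one form of it. Of 27025 promoters of this length, 66.0% held a CANNTG and 6.05% a CACGTG, so that most genes have an E-box in such a stretch. A match describes the letters and is not a site of binding.

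The estimated fragment total behind the values, in M (1e6 fragments), ranged from 6.87 to 16.9 M per blastomere at 4 cells, with a median of 13.4 M, and from 2.34 to 21.8 M at 8 cells, with a median of 17.2 M. The 8-cell libraries were thus the deeper ones as a whole, and 1 of them, S57, was far shallower than the others of its stage. Fewer than 5000 genes were above an FPKM of 1 in 3 columns at 4 cells (S18, S20 and S24) and in 3 at 8 cells (S55, S57 and S58), against medians of 7155 and 6773. In S18 and S20 the summed FPKM of 6 housekeeping genes was 1127 and 1337, where the stage median was 3359, while S24 had 3731. S13, S14, S15 and S16, which are not gene-poor, had 2001, 1556, 1616 and 1248. In S55, S57 and S58 the sum was 5542, 6991 and 4639, above the 8-cell median of 4113. The gene-poor columns were kept, and results are also given without them. Of 12 cumulus and granulosa markers, 5 were listed at each stage, and Amhr2 made up nearly all of their sum, with a mean FPKM of 37.6 at 4 cells and 38.8 at 8 cells. The defining markers Fshr and Foxl2 were listed at neither stage. Their part in the results was not tested.

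**Figure D1:**
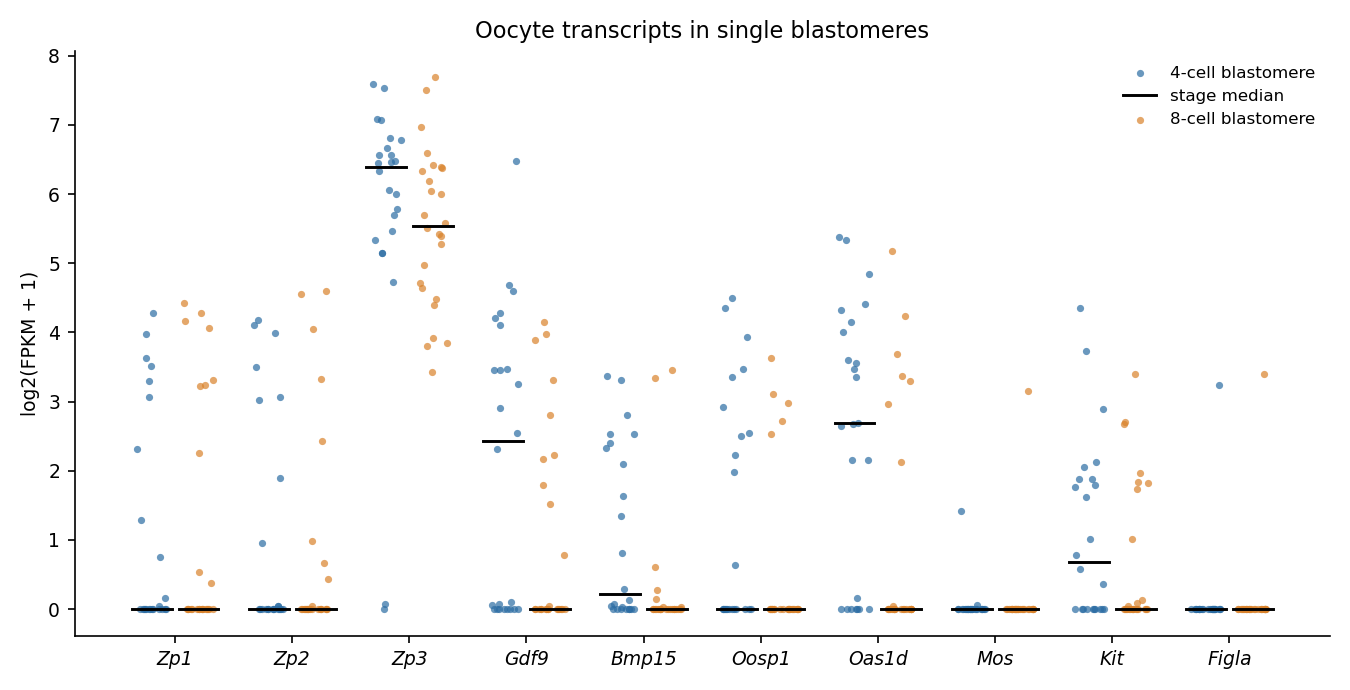
Level of each of the 10 messages, as log2(FPKM + 1), in every blastomere at 4 cells (blue, 24 columns) and 8 cells (orange, 26 columns), with the stage median as a bar. Zp3 stands above the others at both stages, with medians of 83.2 and 45.6 FPKM, and most of the others fall into blastomeres at 0 and blastomeres well above it.

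Zp3, the coat protein first described as the sperm receptor, was the one member seen in nearly all blastomeres. At 4 cells it was above 0 in 23 of 24 blastomeres, with a lowest FPKM of 0, a median of 83.2 and a highest of 191.0. At 8 cells it was above 0 in 26 of 26, with a lowest FPKM of 9.73, a median of 45.6 and a highest of 205.2. The ranges overlapped almost entirely. The mean FPKM was 79.3 at 4 cells and 60.3 at 8 cells, a log2 ratio of -0.40, and with any single blastomere removed it lay between -0.54 and -0.30. The 2 lowest blastomeres at 4 cells were S18, at 0, and S20, with 1 fragment and an FPKM of 0.0573. Both belong to the columns with few expressed genes, and every 4-cell blastomere had 25.4 FPKM or more apart from them. Without the gene-poor columns of both stages the log2 ratio was -0.77. By mean FPKM Zp3 ranked 1275 among the genes at 4 cells and 1569 at 8 cells.

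Zp1 and Zp2 behaved otherwise than Zp3 within the same coat. Zp1, which links the coat's filaments, lies at chr19:10914296-10920601 on the minus strand with 12 exons. In 11 of 24 blastomeres at 4 cells Zp1 was above 0, and the seen values ran from 0.0363 to 18.3 FPKM with a median of 7.35. By 8 cells 10 of 26 blastomeres held it, where the values ran from 0.294 to 20.5 with a median of 8.66. The mean FPKM of Zp1 was 3.22 and then 3.92, a log2 ratio of 0.28, with a leave-one-out range of 0.02 to 0.61. It was the one member that passed the filter on low values and had the higher mean at 8 cells.

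Zp2, the coat protein that is cleaved after fertilization to block further sperm, lies at chr7:120126762-120145291 on the minus strand with 18 exons. The message was above 0 in 10 of 24 blastomeres at 4 cells, from 0.0328 to 17.2 FPKM with a median among them of 7.25. It was above 0 in 9 of 26 at 8 cells, from 0.0274 to 23.4 FPKM with a median of 4.40. The mean went from 3.20 to 2.96 FPKM, a log2 ratio of -0.11, and leaving out 1 blastomere moved it between -0.58 and 0.19, so that its direction rests on single blastomeres. Leaving out any one of the 4-cell blastomeres S6, S12, S14 and S21 turned it, to 0.03, 0.17, 0.14 and 0.19. At 8 cells 80.0% of the summed Zp2 signal lay in 3 blastomeres. Zp1 and Zp2 were seen together in 6 blastomeres at 4 cells and in 1 at 8 cells.

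Gdf9 and Bmp15, the oocyte's growth factors, were both lower at 8 cells. Gdf9 lies at chr11:53430774-53437904 on the plus strand with 2 exons. It was above 0 in 16 of 24 blastomeres at 4 cells, with a lowest FPKM of 0, a median of 4.39 and a highest of 88.6. At 8 cells it was above 0 in 11 of 26, with a median of 0 and a highest of 16.7. The mean FPKM was 10.1 and then 2.79, a 3.63-fold lower level with a log2 ratio of -1.86. The highest value stood in S18, the gene-poor blastomere that had no Zp3, and this 1 blastomere held 36.5% of the 4-cell sum. Without it the log2 ratio was -1.26, and without the gene-poor columns it was -1.22.

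Bmp15 was seen as often as Gdf9 at 4 cells, in 16 of 24 blastomeres, with a median of 0.164 FPKM and a highest of 9.29. The 8-cell stage had it in 7 of 26 blastomeres, and 2 of these, both among the columns named NA, had 9.13 and 10.02 FPKM while the other 5 had 0.0199 to 0.526. The mean FPKM was 2.09 and then 0.771, a log2 ratio of -1.44. Leaving out either of those 2 columns gave -2.26 or -2.38, the other single blastomeres left it at up to -1.20, and leaving out the 5 columns named NA moved it to -5.63, so that the 8-cell level of Bmp15 rests on columns without a name of their own. Above an FPKM of 1 its share was 41.7% at 4 cells and 7.69% at 8 cells. With a mean of log2(FPKM + 1) its ratio was -2.24. At 4 cells 8 blastomeres held both growth factors, and Spearman's rho between their levels was -0.45 over 24 blastomeres. This was the lowest rho among the 10 pairs of members compared at that stage, and the highest was 0.45, for Gdf9 and Kit.

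Oosp1 encodes a protein that the oocyte secretes. It was above 0 in 11 of 24 blastomeres at 4 cells, where the seen values ran from 0.549 to 21.6 FPKM with a median of 6.58. By 8 cells 5 of 26 blastomeres held Oosp1, with 4.76, 5.58, 6.90, 7.64 and 11.4 FPKM. The seen values of the 8-cell stage thus lay inside the range of those at 4 cells, while the number of blastomeres with the message was smaller. The mean FPKM was 4.08 and then 1.395, a log2 ratio of -1.55 with a leave-one-out range of -2.04 to -1.25. Its relatives Oosp2 and Oosp3 were seen in 9 and 4 blastomeres at 4 cells and in 2 and 1 at 8 cells.

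Oas1d belongs to the 2′-5′ oligoadenylate synthetases, whose best known members sense double-stranded RNA, and is known from the mouse ovary and oocyte. It lies at chr5:120914818-120921648 on the plus strand with 6 exons. At 4 cells it was above 0 in 17 of 24 blastomeres, more than any member except Zp3, with a median of 5.44 FPKM and a highest of 40.6. At 8 cells it was above 0 in 8 of 26, with a median of 0 and a highest of 35.2. The mean FPKM was 10.1 and then 3.59, a log2 ratio of -1.50, with a leave-one-out range of -2.13, without S66 at 8 cells, to -1.30. With a mean of log2(FPKM + 1) the ratio was -2.25. Oas1 genes are similar in sequence and the counting kept uniquely aligned reads only, so the split of reads among them is uncertain. Of 11 listed relatives at 4 cells, counting RNase L, 6 were also listed at 8 cells, as were 13604 of all 15218 genes. Oas1e and Oas1h were seen in 10 and 5 blastomeres at 4 cells and were not listed at 8 cells. Oas1c was seen in 7 and then 6 blastomeres, with a mean FPKM of 0.533 and then 0.833. Oasl2 was higher at 8 cells, with a mean FPKM of 8.89 and then 18.4.

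Kit and Mos encode kinases. Kit, the receptor for KIT ligand, lies at chr5:75574987-75656722 on the plus strand with 21 exons. It was above 0 in 14 of 24 blastomeres at 4 cells, with a median of 0.607 FPKM and a highest of 19.4, and in 11 of 26 at 8 cells, with a median of 0 and a highest of 9.59. The mean was 2.48 and then 1.23 FPKM, a log2 ratio of -1.01, and it no longer reached a 2-fold difference in 24 of the 50 leave-one-out settings. Mos, the kinase that holds the egg in metaphase arrest through the MAP kinase pathway, lies in 1 exon at chr4:3870658-3872105 on the minus strand. It was above 0 in 2 blastomeres at 4 cells, with 1.67 FPKM in S17 and 1 fragment in S16, and in 1 at 8 cells, with 7.94 FPKM. The means of 0.0715 and 0.305 FPKM each rest on 1 blastomere, and no ratio was read from them.

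Figla, which lies at chr6:86016494-86020996 on the plus strand with 3 exons, was above 0 in 1 blastomere at each stage. It had 8.48 FPKM from 82 fragments in S2 at 4 cells and 9.60 FPKM from 120 fragments in a column named NA at 8 cells. The same 8-cell column held the only Mos signal of its stage, and of the other members it held only Zp3. S2 was one of the 2 blastomeres with 8 members at 4 cells.

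The order of mean levels at 4 cells was Zp3, then Oas1d and Gdf9 with means of 10.1 FPKM each, then Oosp1, Zp1, Zp2, Kit and Bmp15 between 4.08 and 2.09, and then Figla and Mos. At 8 cells it was Zp3, then Zp1, Oas1d, Zp2 and Gdf9 between 3.92 and 2.79, then Oosp1, Kit and Bmp15 between 1.395 and 0.771, and then Figla and Mos. FPKM is a level per length, and this order between genes rests on lengths that the sources used here do not give. The 4-cell place of Gdf9 also leans on S18, which held 36.5% of its sum. Below Zp3 the neighbours in either order overlapped in their values across blastomeres. FPKM is also relative to the library, so that less of a message per blastomere and more of the other RNA cannot be told apart.

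Of the 10 members, 8 passed a mean FPKM of 1 over the 2 stages, and 5 of them, Gdf9, Bmp15, Oosp1, Oas1d and Kit, had a mean at 8 cells of at most 50% of that at 4 cells. Over all 9525 genes that passed, 14.7% were that much lower at 8 cells. None of the 8 was at least 2-fold higher, where 11.3% of all genes were. The mean was lower by any amount for 7 of the 8, against 51.8% of all genes. The median log2 ratio of the 8 members was -1.22, and that of all genes tested was -0.03. The 10 messages together went from a mean of 115.1 FPKM per blastomere to 77.6, a log2 ratio of -0.57. Zp3 held 68.9% of this sum at 4 cells and 77.7% at 8 cells, and the other 9 together had a log2 ratio of -1.05. None of Zp1, Zp2 and Zp3 reached a 2-fold difference.

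**Figure D2:**
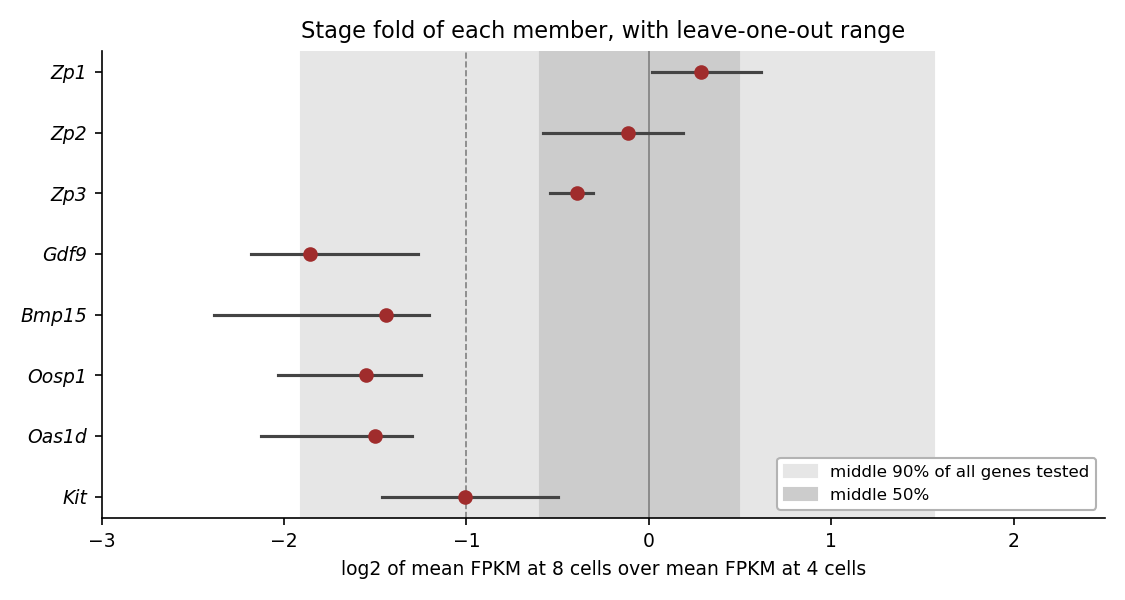
Log2 of the mean FPKM at 8 cells over that at 4 cells (points) for the 8 members that passed the filter, with the range when 1 blastomere at a time is left out (lines); grey bands hold the middle 50% and 90% of 9525 genes, and the dashed line marks a 2-fold lower mean. Gdf9, Bmp15, Oosp1 and Oas1d stay left of the dashed line over the whole range, Kit crosses it, and the coat genes lie to the right of it.

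The share of blastomeres in which a member was seen was lower at 8 cells for 9 of the 10, against 51.5% of all genes listed in both tables. Zp3 was the exception. Figla counts here with 1 blastomere of 24 and 1 of 26. Mos counts with 2 of 24 and 1 of 26, and with a minimum of 10 fragments its shares were 4.17% and 3.85%. For Zp1 the direction turned with a minimum of 10 fragments, from 37.5% to 38.5%, and without the columns named NA, from 45.8% to 47.6%. The share of Oas1d was 70.8% at 4 cells (exact binomial 95% interval 48.9 to 87.4) and 30.8% at 8 cells (14.3 to 51.8). That of Bmp15 was 66.7% (44.7 to 84.4) and 26.9% (11.6 to 47.8). That of Oosp1 was 45.8% (25.6 to 67.2) and 19.2% (6.55 to 39.4). The intervals of the 2 stages overlapped for all 10 members, and they cover counting error over blastomeres only. At 4 cells 5 members, Zp3, Gdf9, Bmp15, Oas1d and Kit, were seen in at least 50% of the blastomeres, and 53.2% of all genes listed at that stage were. At 8 cells only Zp3 was, against 49.1% of all genes.

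**Figure D3:**
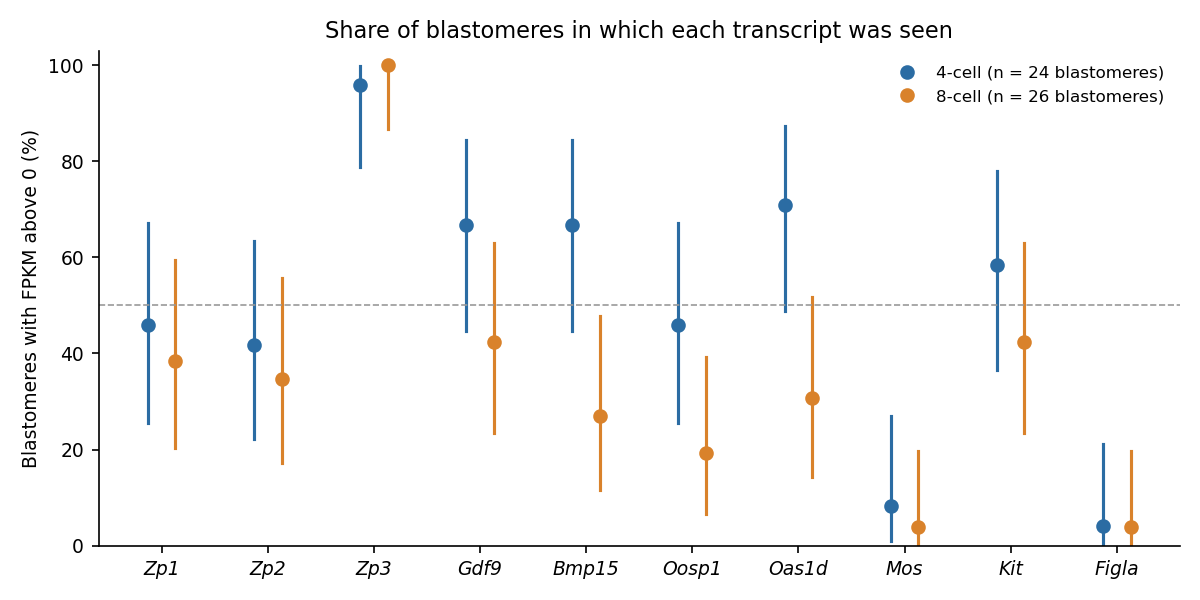
Share of blastomeres with an FPKM above 0 for each member at 4 cells (blue, n = 24) and 8 cells (orange, n = 26), with exact binomial 95% intervals as lines and 50% dashed. The share is lower at 8 cells for 9 of the 10 members, and the intervals of the stages overlap for each of them. Among the 9, Figla and Mos were seen in only 1 or 2 blastomeres of a stage.

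The median fragment total was 13.4 M at 4 cells and 17.2 M at 8 cells. When every column was thinned to 6.87 M fragments, leaving out S57, the expected share was 70.5% and 29.6% for Oas1d, and 62.4% and 23.6% for Bmp15. Where a member was seen at all, it mostly had many fragments. Of 98 sightings of the 9 members other than Zp3 at 4 cells, 84 had at least 10 fragments and 62 at least 100. Of 63 such sightings at 8 cells, 54 had at least 10 and 41 at least 100. In the blastomeres at 0, a count of 0 still allows 3 fragments, which is an FPKM of 0.102 to 0.149 for Oas1d at 4 cells and of 0.0811 to 0.740 at 8 cells. The median of the blastomeres with Oas1d was 10.8 and then 9.08 FPKM. The reads carry no molecular identifiers, and fragments are therefore not independent molecules.

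A 4-cell blastomere held 2 to 8 of the 10 members with a median of 5, and an 8-cell blastomere held 1 to 6 with a median of 3. The 2 blastomeres with 8 members were S2 and S8 at 4 cells. At 8 cells S55 and S57 held Zp3 alone, and both are gene-poor. Across the blastomeres of a stage the number of members seen had a Spearman's rho of 0.61 with the number of genes above an FPKM of 1 at 4 cells (n = 24) and of 0.67 at 8 cells (n = 26), and of 0.18 and 0.07 with the fragment total. Each such pair comes from the same library, and the members are themselves among the genes counted. Among the 10 pairs of the 5 members seen in at least 50% of the 4-cell blastomeres, rho ranged from -0.45 to 0.45 with a median of -0.09.

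**Figure D4:**
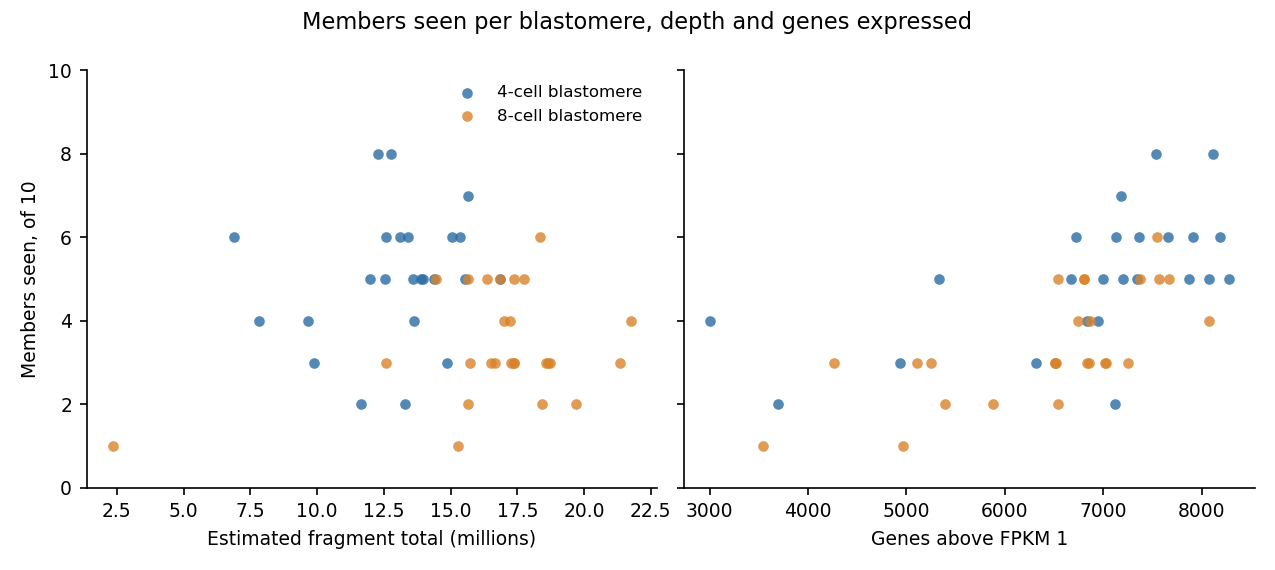
Number of the 10 members seen in each blastomere (vertical axis) against its estimated fragment total (left, in M) and its number of genes above an FPKM of 1 (right), at 4 cells (blue) and 8 cells (orange). Blastomeres with fewer expressed genes held fewer members, and the deeper 8-cell libraries did not hold more.

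The genes whose levels followed Zp3 most closely differed between the stages. At 4 cells, among 8097 genes seen in at least 50% of the columns, they were Eef1b2, Gpr137b, Rpl7, Psmb7 and Mir684-1, with a Spearman's rho of 0.86 to 0.83 over 24 blastomeres. Without the gene-poor columns these 5 had a rho of 0.77 to 0.83. At 8 cells, among 7527 genes, they were Ppp2r3c, Tpgs2, Rpp30, Mfge8 and Jpt1, with a rho of 0.78 to 0.64 over 26 blastomeres, and none of the 5 was shared. Without the gene-poor columns these had a rho of 0.54 to 0.75. They are the extremes of a ranking over many genes in few blastomeres.

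Other genes of the same pathways were counted for comparison, beside 14.7% of all genes at least 2-fold lower and 11.3% at least 2-fold higher at 8 cells. Of 6 genes of the egg surface and coat processing, 4 passed the filter and 2 were at least 2-fold lower at 8 cells, Astl, the egg protease that cleaves ZP2, with means of 1.61 and 0.585 FPKM, and Cd81 with 1.44 and 0.704. Astl was seen in 3 blastomeres at 4 cells and 1 at 8 cells, and Cd81 in 3 and 2, so that these means rest on few blastomeres. Cd9, the egg membrane protein needed for sperm fusion, was seen in every blastomere, with means of 478.4 and 526.6 FPKM. Of 7 receptors and processing enzymes of GDF9 and BMP15, 3 passed and none differed 2-fold. Of 10 genes of the MAP kinase arrest pathway, 7 passed and 1, Mapk3, was at least 2-fold lower, a share near that of all genes. Mapk3 was seen in 5 and 4 blastomeres, with highest values of 22.8 and 13.7 FPKM, so that its call rests on single blastomeres. Map2k1, the kinase that MOS acts on, had means of 82.3 and 68.8 FPKM, while Mos was seen in 2 and 1 blastomeres.

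The shares over all genes, 14.7% lower and 11.3% higher, also stand beside the next lists, whose members are few. Of 6 other oocyte transcription factors, 2 passed and both were at least 2-fold lower at 8 cells, Sohlh1 with 2.65 and 0.273 FPKM and Taf4b with 43.8 and 20.9. Sohlh1 was seen in 5 blastomeres and then 1, so that its means rest on few of them, and Taf4b in 24 and 25. The call of Taf4b, at 2.10-fold, is near the limit and leans on its highest 4-cell value, 142.1 FPKM where the median was 36.25. Of 5 genes of KIT ligand and signalling, 4 passed, Pik3r1 was lower with 3.86 and 0.517 FPKM, and Foxo3 was higher with 6.14 and 14.7. Pik3r1 was seen in 14 and 9 blastomeres, with highest values of 34.55 and 6.27 FPKM, so that its means lean on single blastomeres. The 6 genes of the subcortical maternal complex and its partners, also made by the oocyte, all passed, with Zbed3 lower at 13.6 and 6.76 FPKM and Khdc3 higher at 201.5 and 422.4. Their median log2 ratio was -0.26, that of 6 housekeeping genes was 0.22, and that of 5 trophectoderm and compaction genes was 0.49. Krt8 and Krt18, keratins that the embryo itself makes, were 4.97-fold and 25.6-fold higher at 8 cells. Of 6 sperm markers, 2 were listed at 4 cells and 3 at 8 cells, and none passed the filter.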

How the data were processed

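Single blastomeres were profiled by Smart-seq2. The authors aligned reads to mm10 with STAR 2.5.1b, counted uniquely aligned ones on Refseq genes with HTSeq and deposited FPKM values; the lengths and denominators used for FPKM are not given in the sources used here, and the supplement's read numbers per blastomere could not be tied to columns by name. The stage of each table comes from the study. The members and gene lists were chosen with earlier results of these data known. Named were the 10 members, the 5 genes most like Zp3 by rank correlation and, from the lists, some of the genes that were unlisted or differed 2-fold. Amhr2, Oosp2, Oas1c, Cd9 and Map2k1 lie outside this rule and were named after their values were seen. Fragment totals were estimated from low values, of which at least 90.35% lay within 0.1 of whole fragments. On simulated data, totals of 24 of 24 and 26 of 26 columns were recovered within 1%. Exon lengths are unions of curated RefSeq transcripts of GRCm38.p6. No 2 columns were identical. Repeat tables were not used. Stage means, shares with exact binomial intervals and Spearman correlations were computed with Python 3.11.15, pandas 2.3.3 and scipy 1.17.1. Alternatives were the median, a log mean, rescaled columns, columns left out, other thresholds, thinning, and each blastomere left out.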

Additional observations from a re-analysis of the deposited data

How the results depend on the processing

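The count of 5 members at least 2-fold lower at 8 cells became 2 with stage medians (Gdf9 and Oas1d, both at a median of 0 at 8 cells; 3 members passed the filter, as did 6817 genes in all, of which 1297 were that much lower), 3 with a mean of log2(FPKM + 1) (5 passed; 1292 of 7656 genes in all) and 0 with a fold of 4, and was 4 to 5 with 1 blastomere left out. It was 4, without Kit, when the columns named NA or the shallow column S57 were left out. It was 5 with rescaled columns, with unlisted genes set to 0 and without the gene-poor columns. Over all genes that passed, 14.5% to 15.1% were that much lower in these settings. That share is not given here for a fold of 4 or with 1 blastomere left out. The log2 ratio of the summed level was -0.71 to -0.45 under the planned settings, -0.67 to -0.50 with 1 blastomere left out, and -0.79 without the gene-poor columns, a setting chosen after seeing the data, as was leaving Zp3 out of the sum. The 5 members seen in at least 50% of the 4-cell blastomeres became 3 above an FPKM of 1 and 7 without the gene-poor columns, with Zp1 and Oosp1 at 52.4% each. The share of 53.2% over all genes holds for an FPKM above 0 in all 4-cell columns, and not for these 2 settings. The count of 1 at 8 cells stayed at 1 in all 6 settings run. Single members that changed sign were Zp2, at -0.58 to 0.19 with 1 blastomere left out, and Figla, at -0.048 with the log mean. The log mean also moved Bmp15 to -2.24 and Oas1d to -2.25. The cause was not tested. Stage medians gave no ratio for members with a median of 0, and the columns named NA held all 8-cell Mos and Figla signal. No paired analysis was possible because no column name carries an embryo or replicate number. This limit concerns the names only. Whether the columns follow the order of the blastomeres in the supplement was not tested, and no analysis by embryo was made. Depth limits the zeros of S57 most, where a level of up to 1.69 FPKM for Figla, the highest such limit among the members, would go unseen.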
